A study of Rattus norvegicus with 11 samples.

Results

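Gene expression was compared at day 7 of the conversion of DAc2 rat embryonic stem cells into hypoblast stem cells, called cHypoSCs in the labels, between cells whose starting culture had grown on feeder cells and cells whose starting culture had not. The comparison takes 3 of the 11 Affymetrix Rat Gene 1.0 ST arrays of the study, the 1 array of the feeder arm and the 2 arrays of the feeder-free arm at day 7. The feeder arm started from stem cells on a layer of mouse embryonic fibroblasts, in N2B27 medium. It held CHIR99021 at 3 µM and PD0325901 at 0.5 µM. The feeder-free arm started from the same line on plates coated with laminin, in N2B27 that held CHIR99021 at the same 3 µM, PD0325901 at 2 µM and human BMP4 at 5 ng/mL. CHIR99021 inhibits the kinase GSK3 and so turns on canonical Wnt signalling, and PD0325901 inhibits MEK, the kinase upstream of ERK. From day 0 both arms were in a maintenance medium for rat multipotent adult progenitor cells, with 2% serum and with the factors PDGF, EGF and LIF. The starting cultures thus differed in feeder cells, MEK inhibitor dose, BMP4 and coating at once, and these cannot be told apart. The titles do not say whether fibroblasts were present during conversion. The other arrays, of days 0, 17 and 32, served as the reference for what each arm had still to change.

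The hypoblast, or primitive endoderm, is the layer of the early embryo that gives rise to the extraembryonic endoderm of the yolk sac. In the inner cell mass, cells with high Nanog stay epiblast, and cells in which FGF and ERK signalling raises Gata6 become primitive endoderm and go on to express Sox17, Gata4 and the receptor Pdgfra. Primitive endoderm then forms visceral endoderm, which absorbs and transports nutrients, and parietal endoderm, which lays down a thick basement membrane of type IV collagen and laminin.

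The markers were read first, on the deposited log2 scale, where a difference of 1 is a factor of 2. As a background served 1240 genes of olfactory and vomeronasal receptors, few of which such cells are known to use. Of their values pooled over all arrays, 95% lay below 8.10. Where 1 arm lies below this level and the other above it, the size of a difference may be understated, since the lower level is not resolved. Among the genes named below with a difference that passed, this holds for Prl7a3, Prl3b1, Csgalnact1 and Thbd in the feeder array and for S100a4, Snai2, Chrm2, Postn, Mael and Hoxb13 in both feeder-free arrays, and for Hey2 and Pdgfc in 1 of them. The mean level of 6 hypoblast markers at day 7 was 10.39 in the feeder arm, against 13.16 and 13.30 in the feeder-free arm. The mean of the 5 measured embryonic stem cell markers was 12.97 in the feeder arm, against 11.47 and 11.63 in the feeder-free arm. At day 7 the array of the feeder arm thus stood nearer to stem cells by both sets, and its hypoblast markers, with a mean of 8.96 at day 0, had only begun to come up. Across genes it correlated at 0.980 with the feeder array of day 0 and at 0.950 with each feeder-free array of day 7, which correlated at 0.997 with each other. All arrays shared a median of 8.97. Fewer hypoblast cells and less RNA per cell cannot be told apart in these bulk samples.

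**Figure D1:**
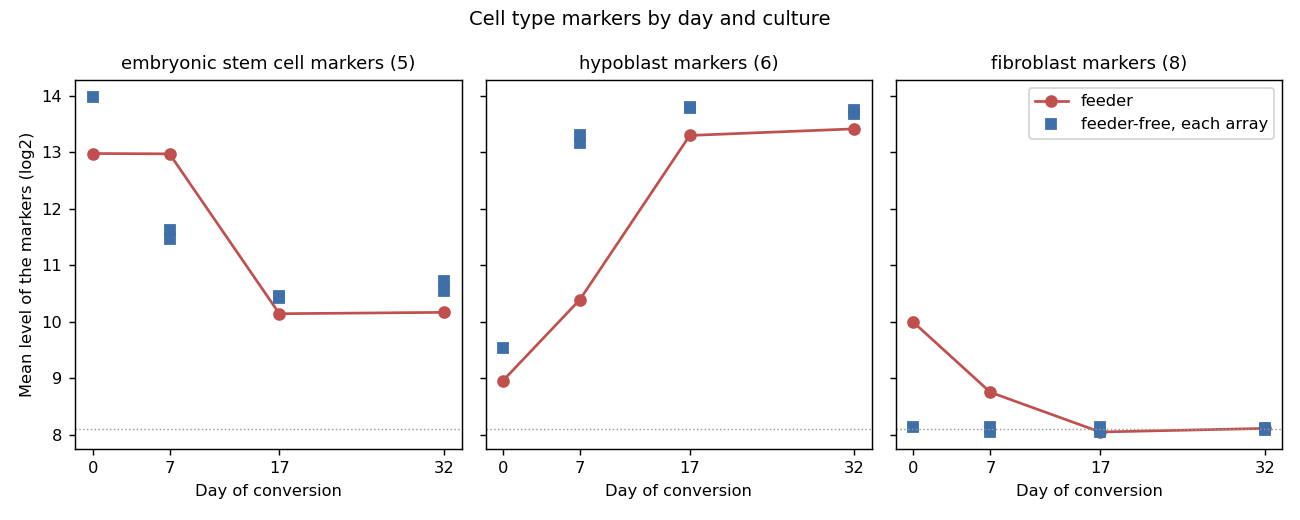
Mean log2 level of 5 embryonic stem cell, 6 hypoblast and 8 fibroblast markers by day of conversion, for the feeder arm (circles, 1 array a day, joined) and each feeder-free array (squares), with a dotted line at 8.10, the level below which 95% of receptor gene values lie. At day 7 the feeder array holds its day 0 level of stem cell markers at 12.97 while the feeder-free arrays are at 11.47 and 11.63, and its fibroblast markers at 8.75 lie between their own day 0 level of 9.99 and the feeder-free arrays at 8.14 and 8.05.

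Fibroblast RNA was followed because the feeder layer could have contributed it. The mean of 8 fibroblast markers was 8.75 in the feeder array of day 7, against 8.14 and 8.05 in the feeder-free arrays, and 2 of the 8 lay below the background level in the feeder array against 4 and 4. At day 0 the mean was 9.99 in the feeder arm and 8.13 in the feeder-free arm. The feeder cells are of mouse and the probes of rat, so these values measure what mouse RNA binds rat probes as well as rat RNA. Its part in the differences below was not tested.

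The difference at day 7 is the feeder value minus the mean of both feeder-free values. It was large and ran both ways. Of 14506 genes, 2955 were higher in the feeder arm, 20.4% of all, and 3023 were lower, 20.8%, at an adjusted p under 0.05 in limma, together 5978 or 41.2%. A difference of at least 1 was reached by 825 higher genes, 5.69% of all, and 865 lower genes, 5.96%. The median difference over all genes was -0.03, and the median size 0.27. For 11499 genes, 79.3%, the whole 95% interval of the difference lay between -1 and 1, and such genes are described below as differing by less than 1. Because the feeder arm has 1 array at day 7, its spread was taken to be that of the feeder-free pairs of days 7, 17 and 32, and the number of arrays limits every value. The labels call the pairs biological replicates without naming separate cultures, so the p values measure only the spread between these samples, which may be technical.

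The 10 genes furthest below the feeder-free arm differed by -3.91 to -4.63, and at day 0 the test had passed for 2 of them, Sema6d and Csgalnact1, both then higher in the feeder arm. Col4a1, a chain of type IV collagen, was at 10.36 in the feeder array, against 14.31 and 14.49 in the feeder-free arrays, a difference of -4.04 ± 0.13 (SE, adjusted p = 9.34e-11). P3h2, a prolyl hydroxylase of collagens, was at 8.99 in the feeder array, against 13.18 and 13.33 (-4.27 ± 0.13). Itga2, the subunit of a collagen-binding integrin, was at 9.30, against 13.22 and 13.43 (-4.02 ± 0.13). In all 3 genes the feeder array lay far below both feeder-free arrays, whose own values were close together. The difference was greatest for the prolactin family gene Prl7a3 (-4.63 ± 0.12), and it was -4.40 for the collagenase Mmp1 and -4.18 for the steroid hydroxylase Cyp17a1. The other genes of the 10 were the myosin-binding protein Mybpc3 (-4.30), the adhesion receptor Adgrf5 (-4.21), the semaphorin Sema6d (-4.16) and Csgalnact1 (-3.91), an enzyme of chondroitin sulfate synthesis.

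The 10 genes furthest above the feeder-free arm were of several kinds, and 8 of them were already higher in the feeder arm at day 0. Thbs1, the matrix protein thrombospondin, was at 12.96 in the feeder array, against 8.73 and 8.76 in the feeder-free arrays (4.21 ± 0.12, adjusted p = 7.43e-11), and its difference at day 0 was 4.72. Bgn, the proteoglycan biglycan, differed by 3.74 at day 7 and by 5.60 at day 0. Both are genes that fibroblasts express strongly, and both are to be read beside the fibroblast markers above. Ly6c, which encodes a cell surface protein, was at 11.95 in the feeder array, against 8.25 and 8.54 in the feeder-free arrays (3.55 ± 0.15), with a difference of -0.33 at day 0 that did not pass. Cga, the subunit shared by the glycoprotein hormones, was at 12.11 in the feeder array, against 8.59 and 8.85 (3.40 ± 0.16), and was the lower in the feeder arm at day 0, by 1.05. The other genes of the 10 were the muscarinic receptor Chrm2 (3.59 at day 7 and 2.11 at day 0), the calcium channel subunit Cacng7 (3.47 and 1.70, in the same order), the Notch target Hey2 (3.43 and 1.47), osteopontin or Spp1 (3.35 and 0.52), Mpped2 (3.34 and 1.06) and apolipoprotein D or Apod (3.32 and 2.37).

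**Figure D2:**
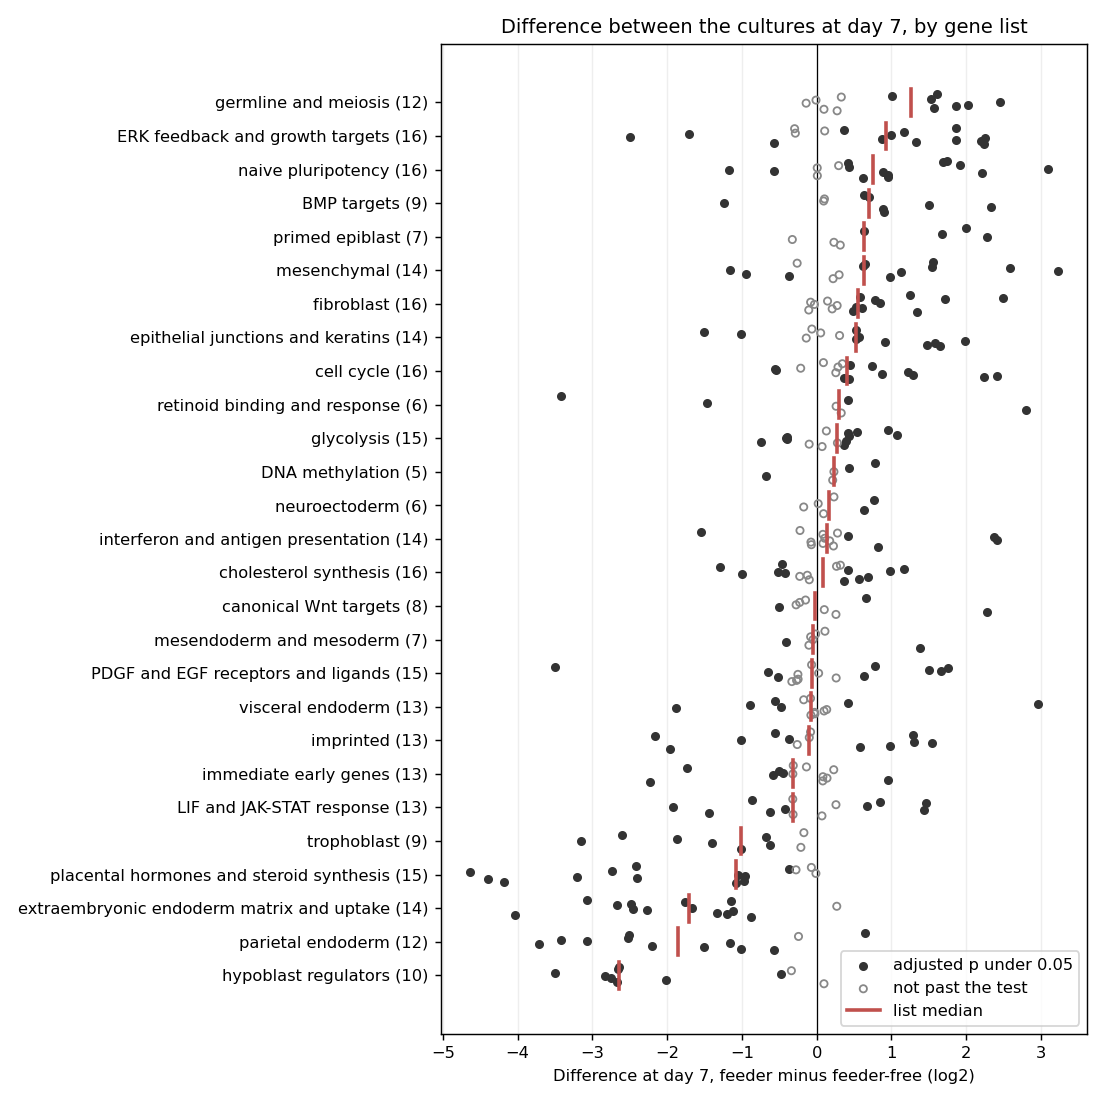
Difference in log2 level at day 7, feeder minus feeder-free, for every measured member of 27 gene lists, with the number of members in brackets, filled points for an adjusted p under 0.05, open points otherwise, and a red bar at the list median. Hypoblast regulators have a median of -2.65 and parietal endoderm genes of -1.85, whereas naive pluripotency genes have a median of 0.75 and canonical Wnt targets of -0.02.

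Genes of naive pluripotency, the state of the starting stem cells, were mostly higher in the feeder arm at day 7. Of 16 measured members 11 were higher and 2 lower, against 20.4% and 20.8% of all genes, with a median difference of 0.75. Nanog, the homeobox factor that guards the naive state, was at 13.29 in the feeder array, against 10.14 and 10.26 in the feeder-free arrays, a difference of 3.09 ± 0.19 (SE, adjusted p = 2.67e-08). Sox2, a partner of Oct4, was at 12.73 in the feeder array, against 10.73 and 10.90 (1.91 ± 0.12, adjusted p = 4e-08). For both genes the groups lay far apart. The growth factor gene Gdf3 (2.21), the transcription factor gene Tfcp2l1 (1.74) and the Akt coactivator Tcl1a (1.69) were also higher. Klf5 was lower, at 13.39 in the feeder array, against 14.51 and 14.61 in the feeder-free arrays (-1.17), and so was Klf4 (-0.57), both Krüppel-like factors of the naive state. Pou5f1, which encodes Oct4, was at 13.94 in the feeder array, against 13.57 and 13.72, and its difference of 0.29 ± 0.13 did not pass (adjusted p = 0.0866). The interval for Pou5f1, 0.02 to 0.57, holds the difference well under that of Nanog or Sox2. Dppa3, Klf2, Fgf4 and Esrrb differed by 0.62 to 0.95.

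Since day 0, 1074 genes had risen in the feeder arm (7.4%) and 1086 fallen (7.49%), against 2345 risen (16.2%) and 3003 fallen (20.7%) in the feeder-free arm. The median of these 16 genes had moved by -0.08 in the feeder arm and by -1.74 in the feeder-free arm. The genes of the primed epiblast, a later pluripotent state, showed the same order for their falling members. Of 7 measured, 4 were higher in the feeder arm and 0 lower, against 20.4% and 20.8% of all genes. Lef1 was at 12.48 in the feeder array, against 10.18 and 10.23 in the feeder-free arrays (2.28 ± 0.14), Zic2 at 14.03, against 11.95 and 12.12 (2.00 ± 0.14), and Nodal at 12.70, against 11.07 and 10.99 (1.67 ± 0.12). Lef1 and Zic2 encode transcription factors and Nodal a signal of the TGF-beta family, and none of the 3 overlapped between the arms. Fgf5, the usual marker of the primed state, was at 7.64, against 7.95 and 7.98, all below the background level of 8.10. The stretch of 250 bases before the RefSeq start of Nanog is shown because Nanog differed most within the naive list. The window is chr4:157615437-157615686 of the rat build GRCr8, plus strand, from RefSeq. Capitals mark the composite sox-octamer element, searched on both strands as CATTNT, 1 free base and ATGCAAA, and chosen from knowledge of the Nanog promoter in mouse and human. It was found on the minus strand with its first printed base 195 bases before the start, and 6 of 33469 windows of the same length, 0.0179%, hold it.
Nanog: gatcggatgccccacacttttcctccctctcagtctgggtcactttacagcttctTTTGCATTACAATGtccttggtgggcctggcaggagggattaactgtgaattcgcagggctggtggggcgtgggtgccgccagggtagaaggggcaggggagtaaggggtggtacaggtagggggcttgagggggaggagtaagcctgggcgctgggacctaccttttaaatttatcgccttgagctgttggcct

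Regulators of the hypoblast were lower in the feeder arm. Of 10 measured members 8 were lower and 0 higher, against 20.8% and 20.4% of all genes, with a median of -2.65. Gata6, the factor that sets the fate, was at 11.25 in the feeder array, against 13.99 and 14.16 in the feeder-free arrays, a difference of -2.83 ± 0.13 (adjusted p = 1.6e-09). Gata4 was at 11.20, against 13.86 and 14.02 (-2.75 ± 0.12), and Sox17 at 11.65, against 14.23 and 14.38 (-2.65 ± 0.13). These 3 genes lay in the feeder array well above background and well below both feeder-free arrays. Pdgfra, the receptor for PDGF, was at 10.04 in the feeder array, against 13.48 and 13.59, with a difference of -3.50 ± 0.12 (adjusted p = 1.96e-10).

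Within the feeder arm the regulators had not all risen. Gata4, Gata6, Sox17 and Pdgfra had risen there since day 0 by 3.09, 2.14, 1.78 and 1.54. Foxa2, a forkhead factor of endoderm, had moved by 0.16 since day 0 in the feeder arm, which did not pass, and had risen by 2.68 in the feeder-free arm. It stood at 9.10 in the feeder array, against 11.77 and 11.77 in the feeder-free arrays (-2.67 ± 0.12). Sox7, a close relative of Sox17, moved by -0.09 in the feeder arm and by 2.74 in the feeder-free arm. Foxa2 and Sox7 thus stood close to their starting level in the feeder array. Hnf4a, a nuclear receptor of endoderm, had fallen by 0.75 in the feeder arm, and its difference at day 7 was -0.48. Foxq1 was lower by 2.02, although both arms had moved by about the same amount since day 0, 1.01 in the feeder arm and 0.99 in the feeder-free arm. Cited1 and Prdm1 did not pass, at 0.10 and -0.34.

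Matrix and uptake genes of extraembryonic endoderm were lower in the feeder arm in 13 of 14 measured members, against 20.8% of all genes. Their median was -1.71. Srgn, a proteoglycan core protein, was at 11.60 in the feeder array, against 14.63 and 14.72 in the feeder-free arrays (-3.07 ± 0.12, adjusted p = 5.72e-10). P4ha2, a subunit of the collagen prolyl 4-hydroxylase, was at 9.48, against 12.10 and 12.19 (-2.67 ± 0.13), and Plod2, a lysyl hydroxylase of collagen, at 9.93, against 12.33 and 12.50 (-2.48 ± 0.13). Since day 0 Col4a1 and P4ha2 had risen by 0.63 and 0.58 in the feeder arm and by 4.86 and 3.42 in the feeder-free arm. P3h2, which is not in this list, had risen by 1.13 in the feeder arm and by 5.51 in the feeder-free arm. Plod2 had moved by 0.14 in the feeder arm, which did not pass, and had risen by 2.10 in the feeder-free arm. The laminin chains Lamc1 and Lama1 were lower by 2.46 and 2.26. The uptake genes lay nearer together. Cubn, the endocytic receptor cubilin, was at 12.11 in the feeder array, against 13.31 and 13.59, a difference of -1.34, after moves since day 0 of 3.96 in the feeder arm and 4.63 in the feeder-free arm. Its partner Lrp2, or megalin, differed by -1.67, the adaptor Dab2 by -1.11 and Amn, which carries cubilin to the surface, by -0.88. Nid2, a basement membrane linker protein, was the member that did not pass (0.27).

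Of 12 parietal endoderm genes 10 were lower and 1 higher, against 20.8% and 20.4% of all genes, with a median of -1.85. Pth1r, the receptor for parathyroid hormone and its related peptide, was at 9.52 in the feeder array, against 13.17 and 13.29 in the feeder-free arrays (-3.71 ± 0.12, adjusted p = 1.37e-10). Stra6, a membrane transporter of retinol, was at 9.03, against 12.42 and 12.48 (-3.42 ± 0.13). For both, the feeder array lay less than 1 above its own day 0 level. The coagulation regulators Tfpi (-2.52), thrombomodulin or Thbd (-2.51) and Plat (-2.20) were lower too, as were the keratins Krt8 (-1.51) and Krt18 (-1.01). Vim, the intermediate filament protein vimentin, was the higher member, at 14.33 in the feeder array, against 13.66 and 13.72 (0.64 ± 0.12). At day 0 it had been at 14.57 in the feeder arm and 8.69 in the feeder-free arm, and it had since moved by -0.24 in the feeder arm and risen by 5.00 in the feeder-free arm.

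Of 13 visceral endoderm genes 9 lay above the background level in all 3 arrays of day 7 and 4 below it in all 3. In the feeder arm 2 were higher and 4 lower, against 20.4% and 20.8% of all genes. Of the 13, 10 differed by less than 1, a share near the 79.3% of all genes, and the median was -0.08. Genes of 2 secreted proteins of mature visceral endoderm were near background in both arms: Afp was at 8.28 in the feeder array, against 8.53 and 8.19, and Ttr at 7.77, against 7.73 and 7.97. The lower members that passed included Dkk1, a Wnt antagonist, at 8.93 in the feeder array, against 10.80 and 10.81 (-1.88 ± 0.12), and Ihh, the signal Indian hedgehog (-0.89). Lefty1, a Nodal antagonist that stem cells express too, was higher, at 14.57 in the feeder array, against 11.46 and 11.76 in the feeder-free arrays (2.95 ± 0.17), and it had been higher at day 0 by 3.81.

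Genes known from trophoblast, the outer layer that forms the placenta, were lower in the feeder arm in 7 of 9 measured members and higher in 0. Over all genes 20.8% were lower and 20.4% higher, and the median of the list was -1.01. Gata3 was at 10.01 in the feeder array, against 13.11 and 13.21 in the feeder-free arrays (-3.15 ± 0.13, adjusted p = 7.92e-10). Plac1, a placental surface protein, was at 8.90, against 11.42 and 11.59 (-2.60 ± 0.13), and Hand1, a factor of giant cells, at 11.43, against 13.17 and 13.42 (-1.86 ± 0.14). In all 3 the feeder array lay between its own day 0 level and the feeder-free arrays. Elf5, a regulator of trophoblast stem cells in mouse, was closer, at 11.97, against 12.59 and 12.61 (-0.63), after moves of 3.04 in the feeder arm and 3.56 in the feeder-free arm. Cdx2, which specifies trophoblast in mouse, was at 9.50, against 9.70 and 9.72, and did not pass (-0.21, interval -0.48 to 0.05), although at day 0 it had been higher in the feeder arm by 1.99.

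Of 15 placental hormone and steroid synthesis genes 12 were lower and 0 higher, against 20.8% and 20.4% of all genes. The median was -1.08. Of the 15, 5 lay below the background level in all 3 arrays of day 7 and 6 above it in all 3. Among those below is Prl8a2, which passed as lower (5.87 in the feeder array, against 6.14 and 6.35, -0.37). Prl7a3 was at 7.72 in the feeder array, against 12.36 and 12.34 in the feeder-free arrays, and Mmp1 at 9.36, against 13.76 and 13.77. Cyp17a1 was at 9.69, against 13.85 and 13.89. The Prl7a3 value of the feeder array lies below the background level of 8.10, so its difference of -4.63 may be understated. Star, which brings cholesterol into mitochondria for steroid synthesis, was lower by 2.42, and Prl2a1 by 2.41. Prl3b1, a placental lactogen, was at 7.12 in the feeder array, against 9.76 and 10.87 (-3.20 ± 0.29), where the feeder value again lies below background, and the feeder-free arrays differed between themselves by more than for most genes. Prolactin family genes lie in a cluster of close copies, so a probe set of one may also bind another.

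**Figure D3:**
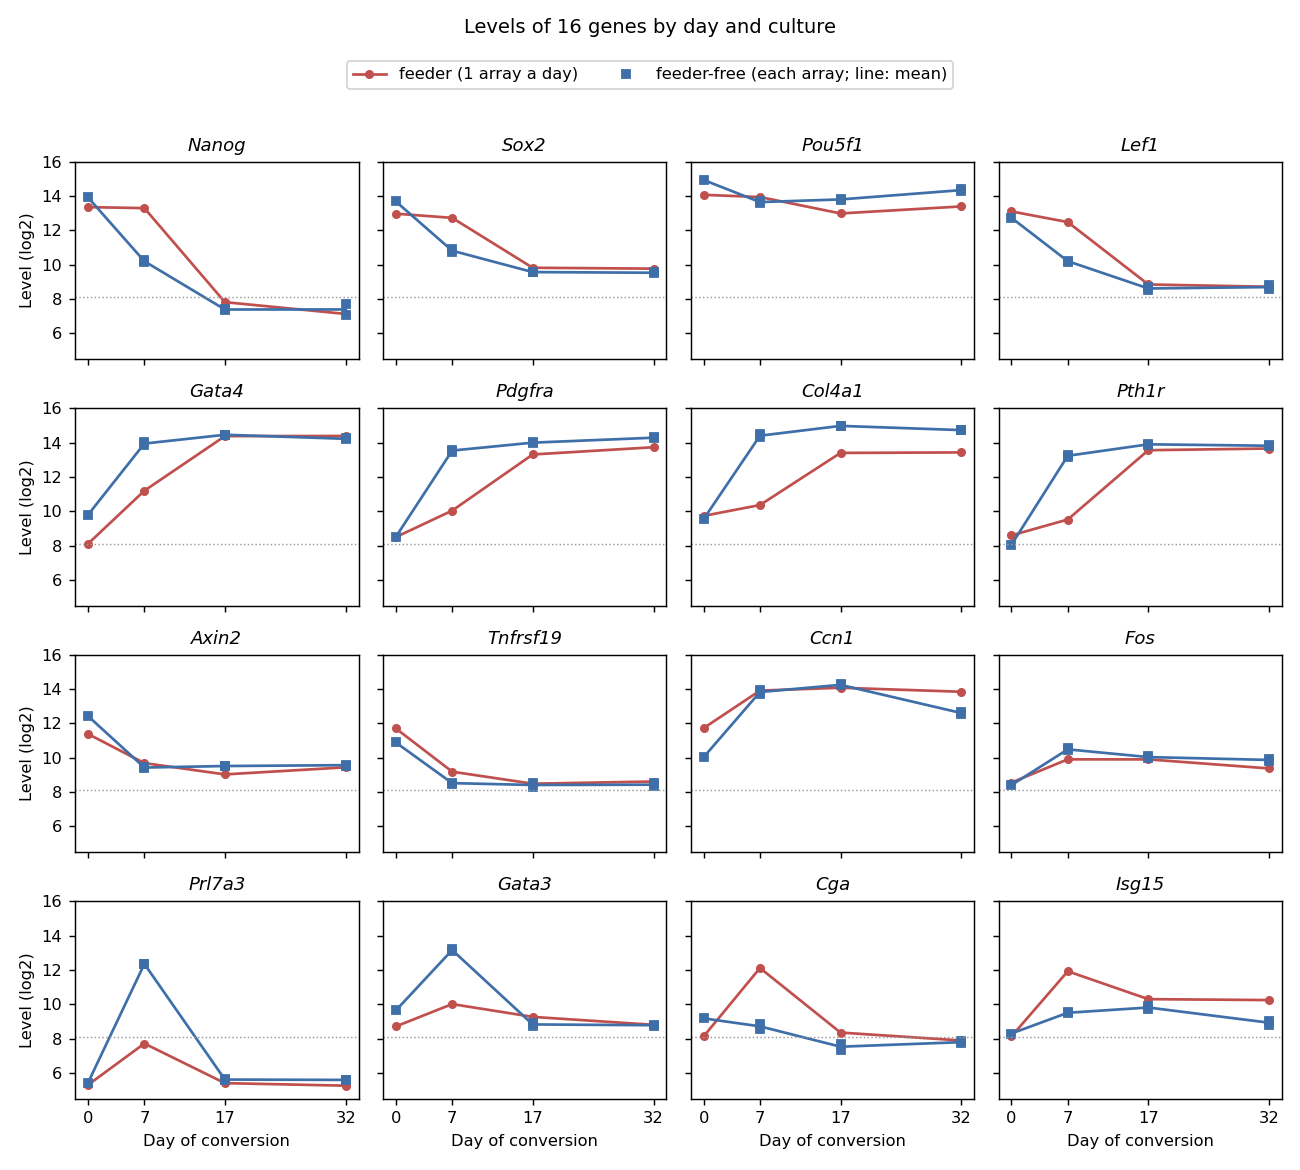
Log2 level of 16 genes by day of conversion in the feeder arm (circles, 1 array a day) and the feeder-free arm (squares for each array, line through the mean), with a dotted line at 8.10, the level below which 95% of receptor gene values lie. Nanog at day 7 is at 13.29 in the feeder arm against 10.14 and 10.26, and Pth1r at 9.52 against 13.17 and 13.29, while Axin2 (9.69 against 9.40 and 9.46) and Ccn1 (13.91 against 13.72 and 13.94) have moved in both arms.

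How far each arm had come by day 7 was expressed as a share of the way: the change from day 0 to day 7 divided by the change from day 0 to the mean of days 17 and 32, within the same arm. It was taken over the 1338 genes whose later change had the same sign in both arms and was at least 1 in both, a choice in which the day 7 arrays have no part. The median share was 0.20 in the feeder arm and 0.79 in the feeder-free arm. The share was lower in the feeder arm for 1281 genes and not lower for 57. In the feeder arm the middle of the genes, between the 25th and 75th percentiles, had shares of 0.0168 to 0.380, and in the feeder-free arm of 0.650 to 0.922. Genes under 0.25 numbered 780 in the feeder arm and 46 in the feeder-free arm, and those at 0.75 or more 77 in the feeder arm and 777 in the feeder-free arm. Rises and falls were alike: over 791 genes with a later rise the median share was 0.18 in the feeder arm and 0.79 in the feeder-free arm, and over 547 genes with a later fall 0.21 and 0.80. The day 0 array of an arm enters both the upper and the lower part of the ratio, and the shares are a description with no test.

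**Figure D4:**
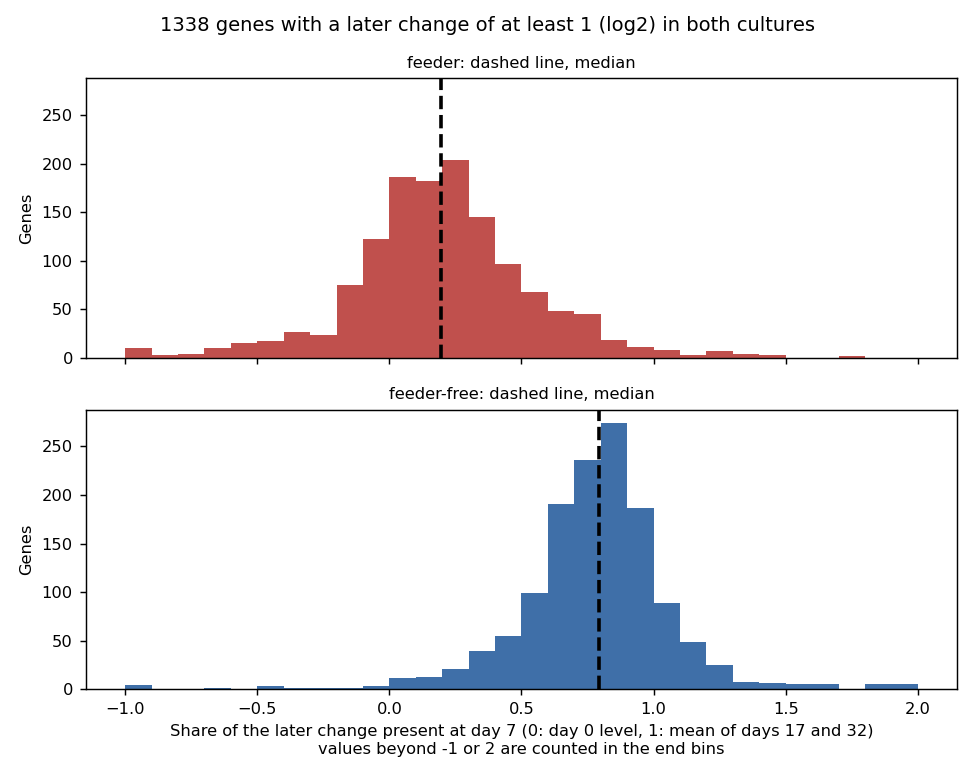
Number of genes by the share of their later change that was present at day 7, for the feeder arm (upper panel) and the feeder-free arm (lower panel), over 1338 genes with a later change of at least 1 in both arms, where 0 is the day 0 level and 1 the mean of days 17 and 32. The dashed medians are at 0.20 in the feeder arm and 0.79 in the feeder-free arm.

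**Figure D5:**
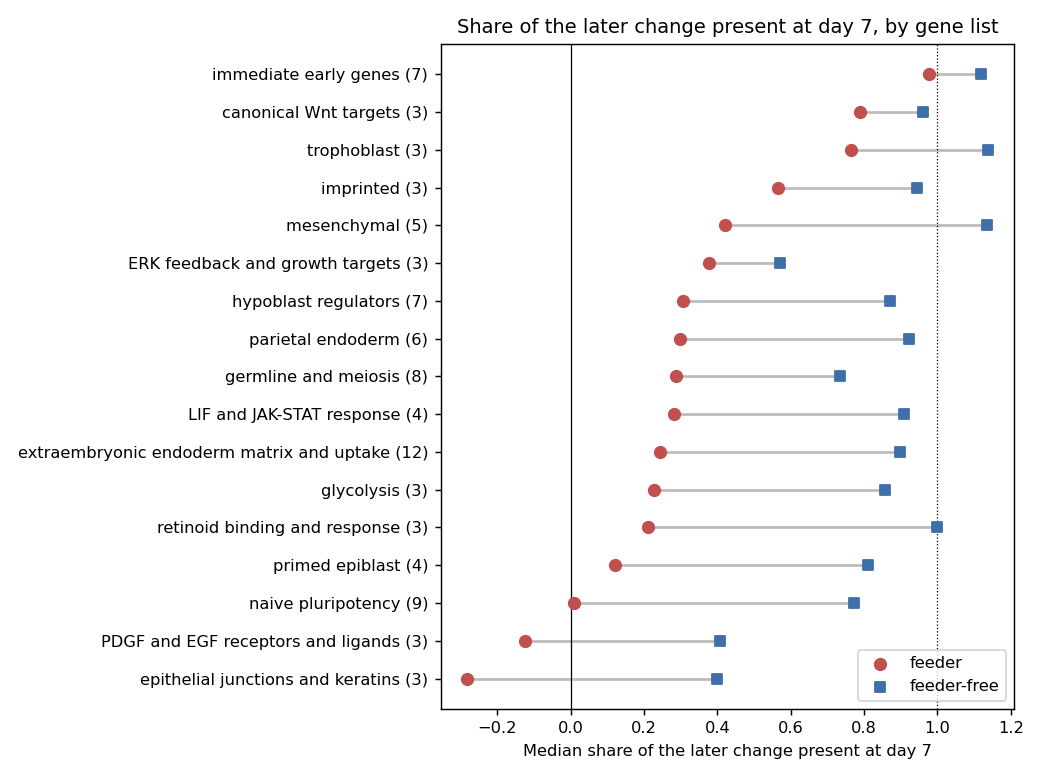
Median share of the later change present at day 7 in the feeder arm (circles) and the feeder-free arm (squares), for gene lists with at least 3 members among the 1338 genes, the number in brackets. Naive pluripotency genes are at 0.01 in the feeder arm and 0.77 in the feeder-free arm, and immediate early genes at 0.98 and 1.12.

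By this measure the medians of the pluripotency and endoderm lists were lower in the feeder arm, as was the median of all 1338 genes. The 9 naive pluripotency genes among the 1338 had a median share of 0.01 in the feeder arm and 0.77 in the feeder-free arm. For 7 hypoblast regulators the medians were 0.31 and 0.87, in the same order, for 12 matrix and uptake genes 0.24 and 0.90, and for 6 parietal endoderm genes 0.30 and 0.92. The 4 primed epiblast genes had 0.12 in the feeder arm and 0.81 in the feeder-free arm. Nanog had a share of 0.01 in the feeder arm and 0.57 in the feeder-free arm, Gata4 of 0.49 and 0.91, Cubn of 0.61 and 0.85, Srgn of 0.54 and 0.95, Col4a1 of 0.17 and 0.92 and Foxa2 of 0.05 and 0.82. The feeder shares of the naive and primed lists lay below the 0.20 of all 1338 genes. Those of the hypoblast, matrix and parietal lists lay above it. In the feeder-free arm the naive list lay below the 0.79 of all 1338 genes and the other lists above it. These lists are not set apart from all 1338 genes by a test.

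Canonical Wnt targets lose an inducer when CHIR99021 is withdrawn. Only 3 of the 8 measured, Axin2, Tnfrsf19 and Lef1, are among the 1338 genes, with shares of 0.79, 0.80 and 0.14 in the feeder arm and of 1.04, 0.96 and 0.62 in the feeder-free arm. Of all 8, 7 differed by less than 1 at day 7, against 79.3% of all genes. Of these 8, 2 were higher and 1 lower, against 20.4% and 20.8% of all genes. Their median was -0.02, a value whose sign turned under other scalings. Axin2, the target with the widest use as a reporter of the pathway, was at 9.69 in the feeder array, against 9.40 and 9.46 in the feeder-free arrays, and did not pass (0.26 ± 0.12, adjusted p = 0.106, interval -0.00 to 0.52). Since day 0 it had fallen by 1.70 in the feeder arm and by 3.00 in the feeder-free arm. Tnfrsf19, a receptor of the TNF family, was at 9.19, against 8.55 and 8.50 (0.67 ± 0.14), after moves of -2.52 in the feeder arm and -2.37 in the feeder-free arm. For both genes most of the fall was present in the feeder array. For Lef1, which is both a Wnt effector and an epiblast gene, most of it was not. The 250 bases before the RefSeq start of Axin2, chr10:94398535-94398784 of GRCr8, plus strand, are shown because Axin2 fell in both arms, whereas Nanog fell in the feeder-free arm and had moved by -0.06 in the feeder arm, which did not pass. Capitals mark CTTTGAT, a form of the TCF and LEF motif, searched on both strands and chosen from knowledge of Axin2. It occurs once, with its first base 132 bases before the start, and 1054 of 33469 windows, 3.15%, hold it.
Axin2: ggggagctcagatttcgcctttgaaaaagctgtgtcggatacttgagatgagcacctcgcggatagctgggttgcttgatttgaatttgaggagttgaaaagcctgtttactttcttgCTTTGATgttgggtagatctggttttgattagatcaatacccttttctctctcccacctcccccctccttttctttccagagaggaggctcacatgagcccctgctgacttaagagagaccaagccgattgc

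Several immediate early genes, which respond to serum and growth factors within minutes, were also up in both arms. Of 13 measured, 10 differed by less than 1, again near the share of all genes. In the feeder arm 1 was higher and 5 lower, against 20.4% and 20.8% of all genes, and the median was -0.31. The median change since day 0 was 0.33 in the feeder arm and 2.15 in the feeder-free arm. Ccn1, a matrix signalling protein, was at 13.91 in the feeder array, against 13.72 and 13.94 in the feeder-free arrays, so that the groups overlapped (0.08 ± 0.13, interval -0.20 to 0.37). It had risen since day 0 by 2.19 in the feeder arm and by 3.80 in the feeder-free arm. Fos was at 9.91, against 10.42 and 10.55 (-0.58), and Junb at 11.19, against 11.57 and 11.82 (-0.51), after rises of 1.35 and 1.56 in the feeder arm and of 2.08 and 2.17 in the feeder-free arm. Zfp36, which shortens the life of mRNAs, did not pass (-0.31, interval -0.61 to -0.01). The 7 members among the 1338 genes had a median share of 0.98 in the feeder arm and 1.12 in the feeder-free arm. Of these 7, Jun had a share of 0.59, Nr4a1 of 0.04 and Atf3 of -0.79 in the feeder arm. Atf3 and Nr4a1 differed most of the list at day 7. Atf3 was at 9.61 in the feeder array, against 11.86 and 11.81 (-2.22 ± 0.14), and Nr4a1 at 8.86, against 10.57 and 10.60 (-1.73 ± 0.13). Atf3 had fallen in the feeder arm by 1.42 and risen in the feeder-free arm by 2.54.

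Egr1 was the immediate early gene that was higher in the feeder arm, at 12.34, against 11.26 and 11.52 in the feeder-free arrays (0.95 ± 0.14, adjusted p = 7.3e-05). It had risen since day 0 in both arms, by 2.78 in the feeder arm and by 2.15 in the feeder-free arm. Its window, chr18:26736828-26737077 of GRCr8, plus strand, is shown as that of a gene that rose early in both arms. Capitals mark the CArG box, the motif of the serum response factor, chosen from knowledge of Egr1 and searched on both strands. There are 2, with their first bases 105 and 83 bases before the start, and 501 of 33469 windows, 1.5%, hold at least 1 and 7 windows, 0.0209%, at least 2. The gene of the factor itself, Srf, differed by less than 1 (-0.14).
Egr1: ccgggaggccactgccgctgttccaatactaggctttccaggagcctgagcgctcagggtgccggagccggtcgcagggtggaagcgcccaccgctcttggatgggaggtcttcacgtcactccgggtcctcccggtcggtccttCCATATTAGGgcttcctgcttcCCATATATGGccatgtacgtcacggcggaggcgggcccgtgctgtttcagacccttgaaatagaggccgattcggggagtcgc

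Over all 1338 genes, 67 had a share of 0.75 or more in both arms. Examples, chosen after their values were seen, were Podxl, the surface sialomucin podocalyxin, at 13.90 in the feeder array, against 13.77 and 13.90 in the feeder-free arrays, Sema7a, a membrane semaphorin, at 12.14, against 12.08 and 12.21, and the imprinted RNA H19, at 14.62, against 14.85 and 14.91. Podxl and Sema7a overlapped between the arms. Socs3, the feedback inhibitor of LIF signalling, was at 12.35, against 13.11 and 13.30 (-0.86), after moves of 2.50 in the feeder arm and 4.03 in the feeder-free arm. Among the falls were Wnt3a, a Wnt ligand (9.37, against 9.03 and 8.74), and Rbm24, an RNA-binding protein (9.46, against 9.22 and 9.11). A share of 0.75 or more in both arms did not mean a like level at day 7. Adgrf5, with shares of 0.81 in the feeder arm and 2.44 in the feeder-free arm, differed by -4.21. Also in this class, Plac1 differed by -2.60 and Isg15 by 2.42.

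Targets of signalling pathways differed by pathway. Of 16 genes of ERK feedback and growth, 10 were higher and 3 lower in the feeder arm, against 20.4% and 20.8% of all genes. The median was 0.93. Etv5, an ETS factor induced by FGF and ERK, was at 12.46 in the feeder array, against 10.16 and 10.25 in the feeder-free arrays (2.25 ± 0.14). Dusp6, an ERK phosphatase, was at 11.67, against 9.35 and 9.59 (2.20 ± 0.13), and the cyclin gene Ccnd1 at 12.54, against 10.20 and 10.39 (2.24 ± 0.14). The feeder array was the higher in each, and for Dusp6 and Ccnd1 that had been so at day 0, by 3.67 and 2.73, when the starting media held PD0325901 at 0.5 µM in the feeder arm and 2 µM in the feeder-free arm. Fosl1, a factor of the AP-1 family, went the other way, at 9.48, against 12.10 and 11.87 (-2.50 ± 0.19), and so did Myc (-1.71). Spry2 and Phlda1 did not pass, both at -0.29.

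Of 13 LIF and JAK-STAT genes 4 were higher and 5 lower. Osmr, the receptor for oncostatin M, was at 8.37 in the feeder array, against 10.27 and 10.30 in the feeder-free arrays (-1.92 ± 0.14), and Cish was lower by 1.44. Socs1 and Irf1, both also induced by interferon, were higher by 1.46 and 1.43, so the list had no common direction. Stat3 itself, which carries the LIF signal, differed by -0.32 and did not pass. Of 9 BMP targets 6 were higher and 1 lower, with a median of 0.70. Id2, an inhibitor of helix-loop-helix factors, was at 12.57 in the feeder array, against 10.09 and 10.38 (2.33 ± 0.15), and Id3 at 11.01, against 9.44 and 9.57 (1.50 ± 0.12). At day 0, when only the feeder-free medium held BMP4, Id2 had been lower in the feeder arm by 1.79 and Id3 higher by 0.57. Id2 had risen since then by 1.93 in the feeder arm and fallen by 2.19 in the feeder-free arm, and Id3 had fallen in both, by 0.65 in the feeder arm and by 1.58 in the feeder-free arm. Id4 was the lower member (-1.23 ± 0.13). Beside the counts of these 2 lists, 20.4% of all genes were higher and 20.8% lower.

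Of 15 receptors and ligands of the PDGF and EGF families 5 were higher and 3 lower. The receptor Pdgfra was far lower, as given above, while the ligand genes Pdgfc, Pdgfa and Pdgfb were higher by 1.75, 1.67 and 1.51. Pdgfb was at 11.17 in the feeder array, against 9.59 and 9.73 in the feeder-free arrays. These PDGF ligand genes and Pdgfra thus differed in opposite directions at day 7, but the ligand genes had unlike courses. At day 0 the differences had been 2.15 for Pdgfc, 0.29 for Pdgfa, 0.17 for Pdgfb and -0.01 for Pdgfra. Since then, in the feeder arm, Pdgfc had moved by -0.78, Pdgfa by 0.64 and Pdgfb by 2.18. Over all genes 20.4% were higher and 20.8% lower, and the counts of this list are to be read beside these shares. Several EGF family genes lay near background, such as Egf (7.92, against 8.11 and 8.23), and Egfr did not pass (0.26).

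Epithelial and mesenchymal genes were each higher in the feeder arm more often than lower. Of 14 epithelial genes 8 were higher and 2 lower, and of 14 mesenchymal genes 8 and 3, against 20.4% and 20.8% of all genes. The 2 lower epithelial genes were the keratins Krt8 and Krt18, given above with the parietal endoderm genes. Cdh1, or E-cadherin, was at 13.64 in the feeder array, against 11.88 and 12.09 in the feeder-free arrays (1.65 ± 0.13), and the tight junction protein Cldn4 at 13.46, against 11.98 and 11.76 (1.58 ± 0.14). Crb3, a protein of apical polarity, was higher by 1.99. Cdh1 had been lower in the feeder arm at day 0, by 0.66, and had risen there by 0.68 and fallen in the feeder-free arm by 1.64. Among mesenchymal genes S100a4 was at 10.11, against 6.93 and 6.83 (3.23 ± 0.13), and Snai2, a repressor of Cdh1, at 10.58, against 7.93 and 8.07 (2.58 ± 0.13). The feeder-free values of both genes lie below background, so both differences may be understated. S100a4 had come up in the feeder arm since day 0, by 2.64, whereas Snai2 had been higher at day 0 already, by 2.92. The related Snai1, a gene of parietal endoderm as well, was lower (-1.15).

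The fibroblast list moved with these. Of its 16 genes 10 were higher in the feeder arm and 0 lower, against 20.4% and 20.8% of all genes. The median was 0.55. On the log2 scale the summed level of the 16 was 13.43 in the feeder array, against 12.57 and 12.45 in the feeder-free arrays. At day 0 it had been 14.78 in the feeder arm and 12.60 in the feeder-free arm. In the feeder array of day 7, 4 of the 16 lay below the background level, against 7 and 7 in the feeder-free arrays, Dcn and Lum among them in every day 7 array. Prrx1, a mesenchymal homeobox factor, was at 10.90 in the feeder array, against 8.40 and 8.40 (2.50 ± 0.13), the collagen chain gene Col1a1 at 11.15, against 10.04 and 9.57 (1.34), and the matrix protein gene Postn at 8.42, against 6.82 and 6.61 (1.71 ± 0.13). Postn, with a level of 11.79 at day 0 in the feeder arm, had fallen there by 3.36. Prrx1 and Postn are also among the genes that the feeder layer could supply, and the part of fibroblast RNA was not tested.

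Metabolic genes differed by less than 1 about as often as all genes did. Of 16 cholesterol synthesis genes 12 stayed within that range, with 6 higher, 5 lower and a median of 0.08, and of 15 glycolysis genes 12 did, with 7 higher, 4 lower and a median of 0.28. Dhcr7, which catalyses a last step to cholesterol, was at 11.72 in the feeder array, against 11.75 and 11.90 in the feeder-free arrays (-0.10, interval -0.36 to 0.17), after moves of -0.82 in the feeder arm and -1.35 in the feeder-free arm. Pgk1 was higher by 1.08 and Tpi1 by 0.96, and Hk2, which phosphorylates glucose, was lower by 0.75. Of 16 cell cycle genes 9 were higher and 2 lower, with a median of 0.40. Beside the counts of these lists, 20.4% of all genes were higher and 20.8% lower. The D-type cyclins Ccnd2 and Ccnd3 were higher by 2.41 and 1.29, and the inhibitors Cdkn1a and Cdkn1b lower by 0.55 and 0.56. Cdk1 and Top2a, which mark dividing cells, did not pass (0.26 and 0.09).

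Of 5 DNA methylation genes 4 differed by less than 1, against 79.3% of all genes. Uhrf1, which recruits Dnmt1 to replicating DNA, was at 13.32 in the feeder array, against 12.47 and 12.60 in the feeder-free arrays (0.79), and Dnmt3a was lower by 0.68. Of 12 germline and meiosis genes 7 were higher and 0 lower, against 20.4% and 20.8% of all genes, with a median of 1.27. Of the 12, 3 lay below the background level in all 3 arrays of day 7 and 4 above it in all 3. Stag3, a cohesin subunit of meiosis, was at 11.12, against 8.57 and 8.78 (2.45 ± 0.14), and Mael, a gene of the piRNA pathway, at 9.53, against 7.43 and 7.58 (2.02 ± 0.13). Both had fallen in both arms since day 0, by less in the feeder arm. Dazl had moved by -1.37 in the feeder arm and -1.46 in the feeder-free arm, and Asz1 by -1.53 and -1.59, in the same order. Neither passed at day 7 (0.10 and 0.27), and at 8.43 and 8.25 in the feeder array both lie close to background.

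Imprinted genes were split, with 5 of 13 higher, 5 lower and a median of -0.10. Phlda2, which limits placental growth, was at 12.22 in the feeder array, against 14.31 and 14.47 in the feeder-free arrays (-2.17 ± 0.13), and Cdkn1c was lower by 1.96. Igf2 was at 11.35, against 9.80 and 9.83 (1.54 ± 0.13), with a difference of 3.34 at day 0. H19, its neighbour on the chromosome, did not pass (-0.26). Of 14 interferon and antigen presentation genes 4 were higher and 1 lower, and 10 differed by less than 1. Isg15, a ubiquitin-like protein induced by interferon, was at 11.92, against 9.49 and 9.53 (2.42 ± 0.14), and Mx2 at 10.71, against 8.30 and 8.37 (2.37 ± 0.18). Tap1, a peptide transporter, was lower by 1.55, and Ifit2 and Ifit3 were below background in every day 7 array. Of 6 retinoid genes 2 were higher and 2 lower: Crabp1, a retinoic acid binding protein, was at 11.44, against 8.85 and 8.43 (2.80 ± 0.16), and Cyp26a1, which degrades retinoic acid, was lower by 1.47. Of 7 mesendoderm genes 6 differed by less than 1, with 1 higher and 1 lower, and of 6 neuroectoderm genes 5, with 2 higher and 0 lower. Of the mesendoderm list Bmp4, at 13.18, against 11.68 and 11.91, was the higher member (1.39). Over all genes 20.4% were higher, 20.8% lower and 79.3% differed by less than 1. The counts of this paragraph are to be read beside these shares.

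The difference at day 7 was set against that at day 0 and at day 17. These comparisons share the day 7 arrays with the one above and are given beside it. The difference between the arms passed for 4575 genes at day 0, 31.5%, and for 4022 at day 17, 27.7%. The difference of day 7 departed from that of day 0 for 3193 genes, 22% of all, 1575 upward and 1618 downward, and from that of day 17 for 2852 genes, 19.7%, 1301 upward and 1551 downward. With the arrays centred on the median of the genes the splits were 2169 upward and 1477 downward against day 0, and 1964 and 1331 against day 17. Of the 1690 genes that passed at day 7 with a difference of at least 1, 372 had a difference of at least 1 the same way at day 0. Of the others, 474 had moved by under 0.5 in the feeder arm since day 0 and by at least 1 in the feeder-free arm, 49 showed the reverse, with at least 1 in the feeder arm and under 0.5 in the feeder-free arm, and the largest class, 795 genes, fitted neither pattern.

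Naive pluripotency genes had a median difference of -0.72 at day 0, 0.75 at day 7 and -0.35 at day 17, and against day 0 the difference had moved upward for 13 of 16 and downward for 1. Hypoblast regulators had medians of -0.50, -2.65 and -0.12 on these days, and between day 17 and day 7 the test of the change passed downward for 8 of 10 and upward for 0. Matrix and uptake genes had -0.07, -1.71 and -0.31, and the change passed downward for 13 of 14 against day 0 and for 13 against day 17. Over all genes it passed upward for 10.9% and downward for 11.2% against day 0, and for 8.97% and 10.7% against day 17. In the hypoblast and matrix lists the median at day 7 was further from 0 than the medians of days 0 and 17. In the naive list the medians of days 0 and 7 were of like size and opposite sign. Fibroblast genes had medians of 0.89, 0.55 and 0.04, a fading order, and ERK feedback genes of 1.29, 0.93 and 0.55. The median of the epithelial list changed sign, from -0.72 at day 0 to 0.53 at day 7. So did that of BMP targets, from -0.68 to 0.70.

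Some genes stood out in 1 arm against the other at day 7. On the basis of values already seen, 92 genes were at least 1 higher in the feeder array of day 7 than in the feeder arrays of days 0 and 17 and than in the feeder-free mean of day 7, with an adjusted p under 0.05. Cga led them, at 8.13 at day 0, 12.11 at day 7 and 8.35 at day 17 in the feeder arm. Lefty2, a Nodal antagonist, was at 11.85 in the feeder array of day 7, against 8.95 and 9.13 in the feeder-free arrays, Hoxb13, a homeobox gene, at 10.54, against 8.01 and 7.88, and Enpp3, an ectoenzyme that splits nucleotides, at 12.40, against 10.11 and 10.30. Muc1, an epithelial mucin, and Frzb, a secreted Wnt antagonist, were at 11.33 and 11.29 in the feeder array. By the same rule for the feeder-free arm 95 genes stood out. They included Prl7a3, Mmp1, Cyp17a1 and Gata3 from the trophoblast and placental lists, Cdh5, an endothelial cadherin, at 10.27 in the feeder array, against 13.62 and 13.64 in the feeder-free arrays, and Plac8, at 10.37, against 13.67 and 13.57. Hsd3b2, an enzyme of steroid synthesis, was at 9.55, against 12.65 and 12.91. The rule did not ask that the other arm lack a peak, and some of these genes peaked in both. In the feeder arm Mmp1 was at 6.51, 9.36 and 6.30 on days 0, 7 and 17, and Cyp17a1 at 7.65, 9.69 and 7.76. Lefty2 had risen since day 0 by 1.56 in the feeder-free arm too, whereas Cga had moved there by -0.47.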

How the data were processed

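Total RNA of 11 samples was hybridised to Affymetrix Rat Gene 1.0 ST arrays. The log2 values were made with RMA by the authors before they were deposited, per the submitters' processing notes, which give no version or options. All arrays share a median of 8.97, and the step that set it is not given in the sources used here. Scanner files were not used here, so detection could not be judged per probe.

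Of 29214 table rows, 15310 had 1 gene symbol in the platform annotation, 323 several and 13581 none. By gene identifier 15279 matched RefSeq (GRCr8), and 0 symbols were updated. Where a gene had several rows (527 genes) the one with the highest mean over all arrays was taken, leaving 14506 genes, with no filter on dim genes. Promoter windows are from RefSeq's GRCr8 table.

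Groups came from the labels, which name no batch. limma 3.58.1 in R 4.3.3 (lmFit, eBayes) was fitted to all 11 arrays with a mean for each of 8 culture and day groups, leaving 3 residual and 10.31 prior degrees of freedom. P values were adjusted by Benjamini-Hochberg over all genes and called under 0.05. The median standard error of the day 7 difference was 0.132. The feeder-free arrays of day 7 held 0 identical values and were counted as 2 replicates. Intervals of 95% are unadjusted.

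The comparison, the gene lists and the motifs were chosen with earlier results of these data known. Genes named are the 10 largest differences each way, 7 fixed regulators, and per list up to 4 called members with the largest difference and up to 4 whose interval lay within -1 to 1 and which changed most since day 0 without feeders. Some genes stand in more than 1 list. Other list members, and genes of the classes described last, were named after their values were seen.

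On simulated data with 14506 genes, of which 50 were changed at each size, the day 7 comparison recovered 52% of differences of 0.5 and 100% of those of 1, 2 and 4, with 15 false calls among 191. For the change of the difference since day 0 the shares were 6%, 82%, 100% and 100% (13 false of 157), and against day 17 they were 12%, 94%, 100% and 100% (14 of 167). Every simulated array, the feeder array included, was given the spread that the fit had estimated. The simulation thus cannot test whether the feeder array shares that spread, and it changed far fewer genes than passed in the data. Alternatives were a mean over the rows of each gene, every row of the table, quantile normalization, centring, leaving out the dimmest 25% of genes, trend and robust eBayes, array weights, a minimum difference of 1, the day 7 arrays alone, a replicate block, and leaving out each replicate in turn. Whether equal replicate numbers pair the arrays was checked by the correlation of replicate differences between days, which was 0.0341 for days 7 and 17, -0.195 for days 7 and 32 and -0.0991 for days 17 and 32, so the numbers were not taken as pairs. Figures were drawn with matplotlib 3.10.9.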

Additional observations from a re-analysis of the deposited data

Results flagged for a closer look

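The results below concern a difference between the arms that was itself different on another day. The difference at day 7 departed from that at day 0 for 3193 genes. Among the 7 regulators that were always read, the departure from day 0 was 3.66 for Nanog, 2.62 for Sox2 and 1.16 for Pou5f1, all toward the feeder arm, and -3.48 for Pdgfra, -1.98 for Gata6, -1.74 for Sox17 and -1.06 for Gata4, all away from it. In limma the adjusted p was 9.56e-07 for Nanog, 0.000608 for Pou5f1 and 0.000924 for Gata4. Pou5f1 had a difference of -0.86 at day 0, when its level was 14.07 in the feeder arm and 14.93 in the feeder-free arm, and of 0.29 at day 7.

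Against day 17 the difference had departed for 2852 genes. Here the departure was 2.66 for Nanog, 1.66 for Sox2 and 1.11 for Pou5f1, and -2.81 for Pdgfra, -2.67 for Gata4, -2.62 for Gata6 and -2.49 for Sox17. At day 17 Gata4 was at 14.37 in the feeder arm, against 14.44 and 14.46 in the feeder-free arm. Both sets of values use the same day 7 arrays, and the feeder arm has 1 array on each day.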

How the results depend on the processing

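Of the 204 named genes tested under the alternatives, 93 differed by at least 1, and all 1482 of their alternative values kept direction and call. Over all 3448 gene values 3305 kept them, 92 lost the call, 51 gained it and 0 changed sign with a call. The count of genes at day 7 was 9014 (4451 higher, 4563 lower) with all rows of the table, which are more numerous, and 22854 rows then differed by less than 1. With a minimum difference of 1 it was 1690 (825 higher, 865 lower), against day 0 1614 (718 upward, 896 downward) and against day 17 1264 (501 and 763). Centring gave 1964 upward genes against day 17, and the cause was not tested. The median share in the feeder-free arm was 0.814 after quantile normalization and 0.815 over the 423 genes with a later change of at least 2, an alternative chosen after seeing the data. The replicate block gave 5874 genes at day 7, 3184 against day 0 and 2845 against day 17, and changed no count by over 1.5 times. Leaving out one feeder-free array at a time gave 5614 to 6078 genes at day 7, 3097 to 3340 against day 0 and 2717 to 2812 against day 17, and the day 7 arrays alone gave 5420. List medians changed sign in 5 of 324 cases, 4 of them the Wnt list near 0 and 1 the retinoid list, at -1.47 without the dimmest 25% of genes. The feeder arm has 1 array a day, so no feeder array could be left out.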
